A study of Mus musculus with 17 samples.

Results

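The claudin and cadherin genes were taken from the mouse count tables by symbol, as Cldn or Cdh followed by digits alone. This gave 46 of 52850 gene symbols, 23 claudins and 23 cadherins, and their RNA levels were compared over the 4 RNA-seq groups of a study that asks how fusion proteins of YAP act in ependymoma of the forebrain. RNA-seq was available for 12 of the 17 samples, and the 5 samples that measured protein binding to DNA were not analysed here. The YAP-M group (n = 4) held brain tumours of mice electroporated in utero, that is, given plasmid DNA while still embryos; the construct was YAP-M, and the promoter that drives it is not named. The YMdIDR group (n = 3) overexpressed YAP-MΔIDR; its labels name both brain tumour tissue and neural progenitor cells derived from ES (embryonic stem) cells. The SVZ group (n = 3) was wild-type; its labels name brain tumour as the tissue, while the extraction protocol speaks of normal brain. The NSC-YAP group (n = 2) was a culture of ES-derived neural progenitor cells that overexpressed YAP, grown as mouse neural stem cells with EGF, basic FGF and heparin. The material of YMdIDR and SVZ is therefore not settled by the labels, and no age, strain or line is given for any group. Nothing says that the replicates of a group came from separate animals or cultures, so p-values measure only how these samples spread, and some of that spread may be technical.

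Claudins are membrane proteins of the tight junction that seal the space between cells or form pores for ions and water, and which claudins a tissue uses sets how leaky its barrier is. In the brain they are known from the endothelium of the blood-brain barrier, the choroid plexus and the myelin sheath. Cadherins are calcium-dependent adhesion proteins that bind the same cadherin on the next cell and anchor to actin through catenins. Type I (classical) cadherins hold epithelia and the neuroepithelium together, type II cadherins mark subsets of neurons, vessels and mesenchyme, and a few atypical members differ in their anchor or length. YAP is a transcriptional coactivator of the Hippo pathway, which responds to cell contact, and it binds DNA through TEAD factors.

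Total counts ranged from 20784130 to 25463303 per library. Yap1 stood at 92.7 to 104.9 CPM in YAP-M, 184 to 1274 CPM in YMdIDR, 21.5 to 27.9 CPM in SVZ and 238 to 241 CPM in NSC-YAP. CPM are counts scaled to library size (library totals brought to a common size) after TMM, a correction for differences in composition. Marker lists were summed to check the material. The 12 endothelial markers summed to 448 to 644 CPM in YAP-M, 397 to 409 CPM in YMdIDR, 214 to 288 CPM in SVZ and 29.8 to 30.4 CPM in NSC-YAP, where 4 of the 12 reached 1 CPM. The 8 macrophage and microglia markers summed to 760.2 to 1030.0 CPM in YAP-M, 859 to 1051 CPM in YMdIDR and 40.4 to 41.3 CPM in NSC-YAP. Both sums lay higher in every YMdIDR library than in either NSC-YAP library, although a label calls YMdIDR neural progenitor cells. The SVZ libraries held myelin markers at 20760.0 to 25450.0 CPM, neuronal markers at 4939 to 5274 CPM and all 8 ependymal markers at 1 CPM or more. All 6 neural progenitor markers were at 1 CPM or more in every group. Their sum ran from 3897 to 4137 CPM in NSC-YAP and from 2749 to 3877 CPM in YMdIDR. In YAP-M it ran from 1712 to 2339 CPM, and in SVZ from 266 to 290 CPM. The 6 subventricular zone niche markers were also lowest in SVZ, where they summed to 106 to 133 CPM. They summed to 259 to 316.5 CPM in YAP-M, 153 to 230 CPM in YMdIDR and 444 to 469 CPM in NSC-YAP. The progenitor and niche lists were chosen later than the others.

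Of the 46 members, 33 had at least 1 CPM in at least 2 libraries and were tested, 11 claudins and 22 cadherins. A gene was called where edgeR gave an adjusted p under 0.05 and it changed at least 2-fold, that is, by 1 or more on the log2 scale, with 18329 genes tested in 1 fit. The 13 members not tested were Cdh16 and 12 claudins. Cldn16 and Cldn22 had no count in any library. Members under 1 CPM in every group mean numbered 14, namely Cdh16, Cldn3, Cldn8, Cldn9, Cldn13, Cldn15, Cldn16, Cldn17, Cldn18, Cldn19, Cldn20, Cldn22, Cldn23 and Cldn24. Of these Cldn19 was tested and was called in none of the 6 comparisons, and Cldn3 reached 0.407 to 2.05 CPM over the YAP-M libraries.

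Compared per length of transcript, 1 claudin led each group. Cldn12 led in YAP-M, with a mean of 56.9 CPM per kb or 37.4% of the claudin sum, followed by Cldn11 (43.95 CPM per kb) and Cldn5 (34.9 CPM per kb). In YMdIDR Cldn12 led with 49.0 CPM per kb. In SVZ Cldn11 led with 544 CPM per kb, 90.3% of the claudin sum, and in NSC-YAP Cldn12 with 9.08 CPM per kb, 75.3%. Among cadherins Cdh2 led all 4 groups, with 38.2 CPM per kb in YAP-M, 47.99 in YMdIDR, 17.7 in SVZ and 35.9 in NSC-YAP. The next cadherin was Cdh11 in YAP-M and YMdIDR (11.4 and 12.6 CPM per kb) and Cdh13 in SVZ and NSC-YAP (9.51 and 22.6 CPM per kb). Summed CPM of all claudins ran from 376 to 459 in YAP-M, 268 to 321 in YMdIDR, 1131 to 1200 in SVZ and 44.7 to 45.9 in NSC-YAP. For the cadherins it ran from 381 to 715 in YAP-M, 534 to 728 in YMdIDR, 574 to 599 in SVZ and 880.2 to 891 in NSC-YAP. The claudin sums of the 4 groups did not overlap, while the cadherin sums of YAP-M, YMdIDR and SVZ did.

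**Figure D1:**
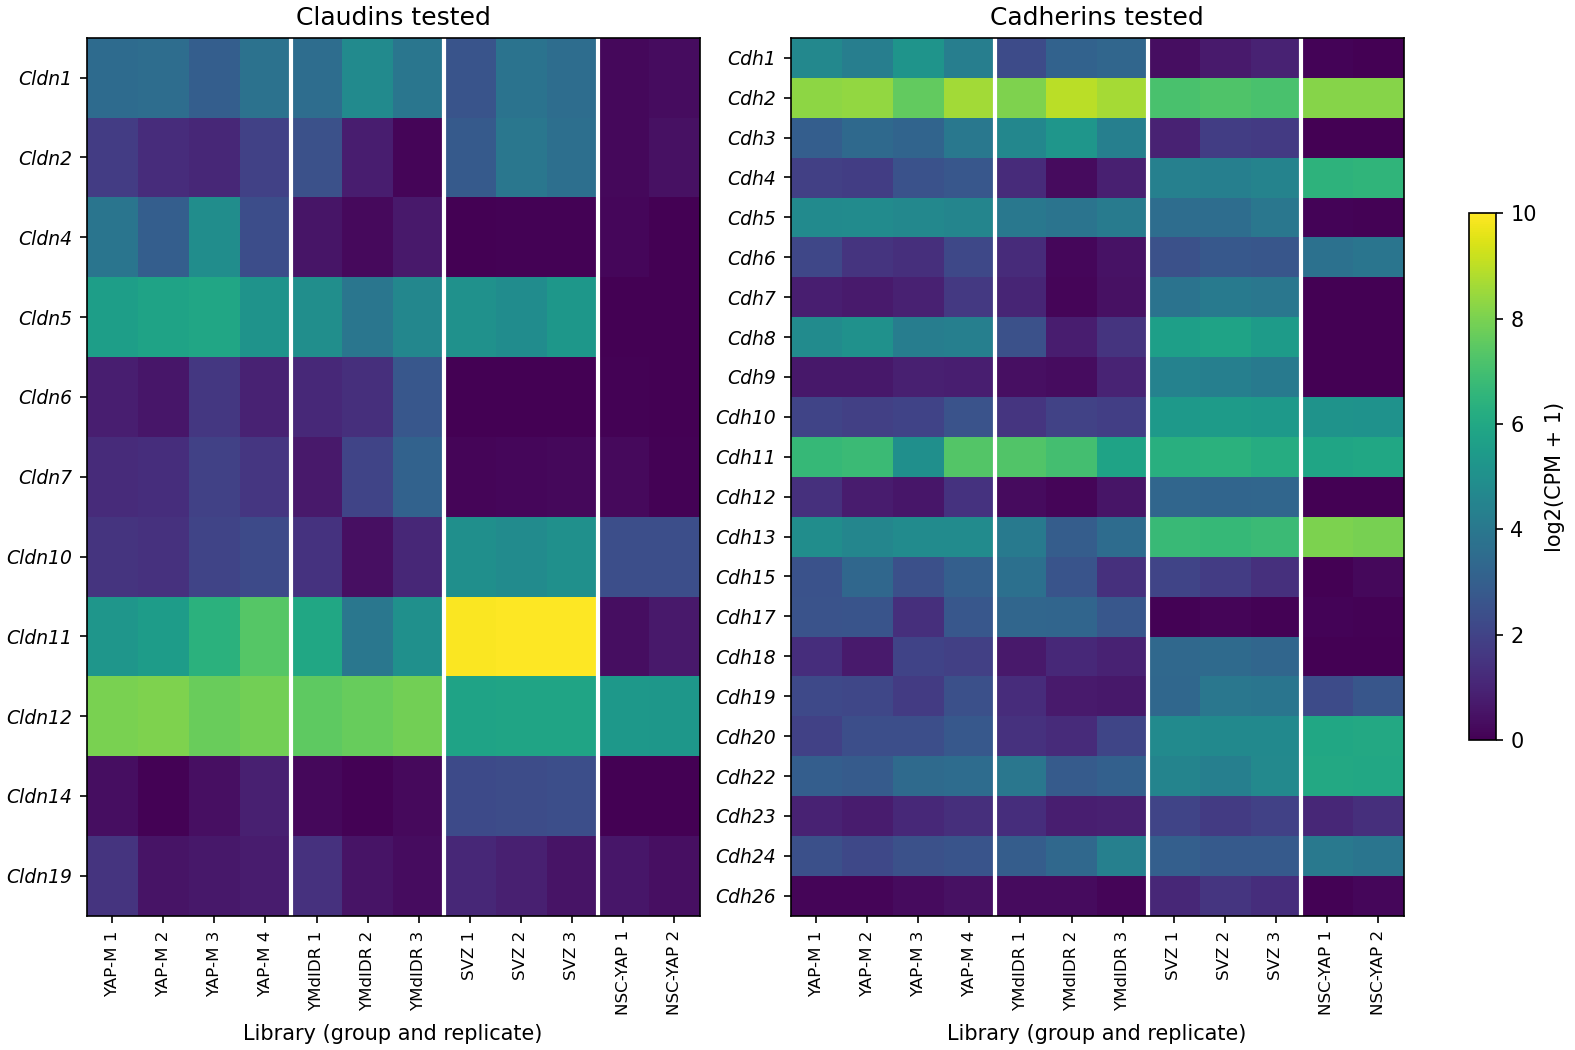
Level of the 33 tested members in each of 12 libraries, as log2(CPM + 1) on a colour scale from 0 to 10; white lines part the 4 groups. Cldn12 and Cdh2 are bright in the YAP-M and YMdIDR columns, Cldn11 is brightest in SVZ, and 5 of the type II cadherins are at 0 in both NSC-YAP columns.

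The comparison of YAP-M with SVZ sets the tumours beside the group labelled wild-type. Cldn4, Cldn6, Cldn7, Cldn12, Cdh1, Cdh2, Cdh3, Cdh5 and Cdh17 rose in the tumours. Cldn10, Cldn11, Cldn14, Cldn2 and 9 of 13 type II cadherins fell. Altogether 9 of 33 tested members rose and 17 fell, where 25.8% of all genes tested were called higher and 28.9% lower. The median log2 difference was -1.05 over the members and -0.042 over all genes tested. A member with reads in a single group could enter the test through that group, so these counts are a description of the families.

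The comparison of YAP-M with YMdIDR sets the YAP-M construct beside YAP-MΔIDR; the labels do not spell out IDR. In YAP-M 11 of 33 tested members rose, led by Cldn4 and Cdh8, and 2 fell, Cdh3 and Cdh24, where 9.61% of all genes tested were called higher and 6.78% lower. The median log2 difference was 0.46 over the members and 0.0093 over all genes. The counts moved with single libraries. Without YMdIDR replicate 1 there were 13 higher and 4 lower, and without YMdIDR replicate 3 there was 1 lower, Cdh3. The 3 claudins called higher were Cldn4, Cldn5 and Cldn10. Leaving out YMdIDR replicate 1 raised their number to 5, and leaving out YMdIDR replicate 2 left 1, Cldn4.

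Against NSC-YAP, 19 of 33 tested members rose in YAP-M and 7 fell, where 28.9% of all genes were called higher and 21.6% lower. The median log2 difference was 3.90 over the members and 0.0998 over all genes. The median over the members was the value of Cldn7, which had 6 counts in NSC-YAP. Cldn5, Cldn14, Cdh3, Cdh7, Cdh8, Cdh9, Cdh12 and Cdh18 had no read there, so the size of their rise is not measured. As against SVZ, a member could enter the test through a single group, so counts and median are a description. Those that rose were 9 of 11 tested claudins and 10 of 22 cadherins, and the 7 that fell were all cadherins. No claudin was called lower by edgeR here, 0 had an unadjusted p under 0.05 in that direction, DESeq2 called 0 and limma after quantile normalization called 1, Cldn10. Under quantile normalization 15 members rose and 11 fell, 5 and 1 of them claudins, while over all genes 3846 rose and 5045 fell in place of 5293 and 3951. The other comparisons share these libraries. YMdIDR against SVZ had 8 higher and 18 lower, with 26.9% and 29.6% of all genes called. YMdIDR against NSC-YAP had 16 and 8, with 27.4% and 20.4%, and NSC-YAP against SVZ had 6 and 18, with 17.5% and 27.6%.

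Some members separated the groups library by library. In 7 members, Cldn4, Cldn6, Cldn7, Cldn12, Cdh1, Cdh3 and Cdh17, all 7 libraries of YAP-M and YMdIDR lay above all 5 of SVZ and NSC-YAP, as did 20.3% of all genes tested. In another 7, Cldn10, Cdh4, Cdh6, Cdh10, Cdh13, Cdh20 and Cdh22, they all lay below, as did 18.8% of genes. Both shares of the 33 members were near those of all genes.

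**Figure D2:**
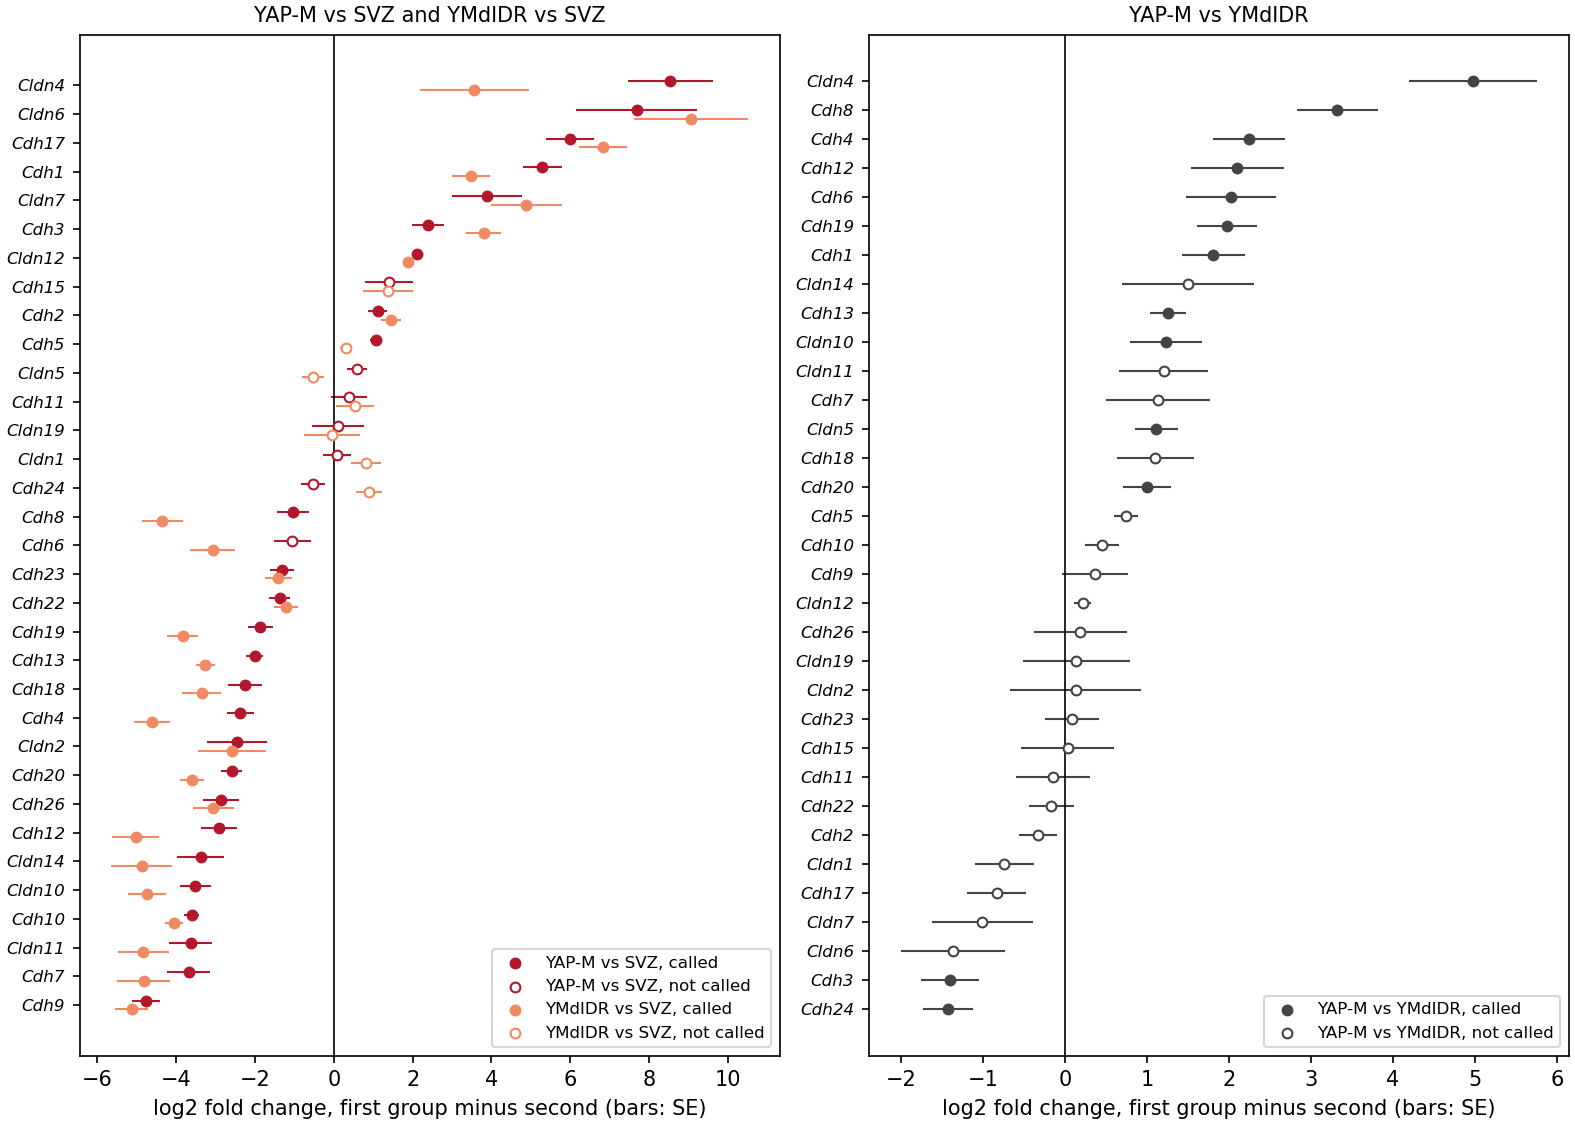
Log2 fold change with its standard error for the 33 tested members, at left YAP-M against SVZ and YMdIDR against SVZ (the same 3 SVZ libraries serve both), at right YAP-M against YMdIDR; filled points were called by edgeR. Cldn4 has the highest YAP-M value in both panels, and Cdh3 and Cdh24 are the filled points below 0 at right.

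Cldn4 (ENSMUSG00000047501, chromosome 5, 134945119 to 134946934, minus strand, mm10) encodes a sealing claudin of many epithelia. It stood at 13.9, 6.93, 29.1 and 4.19 CPM in YAP-M, 0.47, 0.18 and 0.618 CPM in YMdIDR, 0, 0.0449 and 0.0489 CPM in SVZ and 0.122 and 0 CPM in NSC-YAP, in the order of the replicate numbers, as for all such lists that follow. Every YAP-M library lay above every other library, and YAP-M replicate 3 was the highest. The SVZ libraries held 2 counts in all, against which the YAP-M level was 419 times (95% counting interval 116 to 3463). Against YMdIDR Cldn4 rose by 4.98 ± 0.78 (log2, SE, edgeR adjusted p = 0.000621), between 4.30 (without YAP-M replicate 3) and 5.34 when single libraries were left out. In YMdIDR against SVZ the ratio was 13.7 times (95% counting interval 3.46 to 118), and that call was lost without YMdIDR replicate 1 or 3 or any 1 SVZ library.

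Cldn6 (ENSMUSG00000023906, chromosome 17, 23679365 to 23682446, plus strand, mm10) is known from embryonic epithelium and stem cells. Its levels ranged over 0.519 to 2.05 CPM in YAP-M and 1.20 to 5.65 CPM in YMdIDR, and NSC-YAP held 1 count. SVZ had no read, so YAP-M was at least 22.6-fold and YMdIDR at least 59.8-fold higher, taking 3 counts in the 3 SVZ libraries together as the floor. Cldn7 (ENSMUSG00000018569, chromosome 11, 69964779 to 69967885, plus strand, mm10), a claudin of epithelial side walls, ranged over 1.32 to 2.86 CPM in YAP-M, 0.598 to 7.73 CPM in YMdIDR, 0.0921 to 0.147 CPM in SVZ and 0.0408 to 0.203 CPM in NSC-YAP. It rose by 3.88 ± 0.89 in YAP-M against SVZ (edgeR adjusted p = 0.00186) and by 4.89 ± 0.91 in YMdIDR (adjusted p = 0.000434). For both genes the highest library was YMdIDR replicate 3, and YAP-M and YMdIDR overlapped. Neither was called between YAP-M and YMdIDR, and both were called lower in YAP-M when YMdIDR replicate 1 was left out (-1.74 for Cldn6 and -1.52 for Cldn7). Cldn7 rose by 3.90 ± 1.04 against NSC-YAP (adjusted p = 0.00534), a call lost without NSC-YAP replicate 2 (3.18) or under quantile normalization (1.40), while the value was 5.39 without NSC-YAP replicate 1.

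The start sites of these 3 claudins are shown because the genes stood above SVZ together and because YAP acts through TEAD. The windows run from 250 bases before to 50 bases after the start in RefSeq's GRCm38.p6 annotation, 5′ to 3′ on the gene's strand. Capitals mark GGAATG or its reverse complement CATTCC, a TEAD element, and CAGGTG or its reverse complement CACCTG, an E-box that SNAI and ZEB repressors can bind. The windows lie at chr5:134946885-134947184 (minus strand, Cldn4), chr17:23679115-23679414 (plus strand, Cldn6), chr11:69964529-69964828 (plus strand, Cldn7, upstream start) and chr11:69965171-69965470 (plus strand, Cldn7, downstream start).
Cldn4: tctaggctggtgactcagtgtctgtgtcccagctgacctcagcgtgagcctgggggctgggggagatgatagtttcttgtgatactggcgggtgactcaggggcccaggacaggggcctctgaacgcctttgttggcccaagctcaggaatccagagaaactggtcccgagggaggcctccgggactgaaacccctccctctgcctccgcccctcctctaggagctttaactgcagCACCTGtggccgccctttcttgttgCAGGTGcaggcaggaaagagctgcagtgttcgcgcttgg
Cldn6: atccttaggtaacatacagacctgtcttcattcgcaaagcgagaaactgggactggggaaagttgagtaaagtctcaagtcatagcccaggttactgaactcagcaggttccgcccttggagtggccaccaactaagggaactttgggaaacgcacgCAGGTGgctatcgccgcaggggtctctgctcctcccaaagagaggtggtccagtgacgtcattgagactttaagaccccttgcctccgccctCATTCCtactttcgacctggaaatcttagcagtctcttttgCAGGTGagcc
Cldn7 upstream start: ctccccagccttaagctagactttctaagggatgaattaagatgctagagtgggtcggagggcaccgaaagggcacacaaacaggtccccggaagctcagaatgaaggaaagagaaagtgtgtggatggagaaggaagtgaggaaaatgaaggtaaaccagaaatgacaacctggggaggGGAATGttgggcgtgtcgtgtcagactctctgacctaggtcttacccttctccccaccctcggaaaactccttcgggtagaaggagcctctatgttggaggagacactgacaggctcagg
Cldn7 downstream start: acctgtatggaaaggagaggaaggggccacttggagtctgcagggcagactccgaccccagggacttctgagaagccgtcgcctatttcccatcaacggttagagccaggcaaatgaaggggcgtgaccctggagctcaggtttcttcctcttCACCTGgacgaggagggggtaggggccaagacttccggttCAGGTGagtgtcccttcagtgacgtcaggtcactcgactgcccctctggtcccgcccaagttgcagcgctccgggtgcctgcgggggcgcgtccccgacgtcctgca
The TEAD element stood in the Cldn6 window and the upstream Cldn7 window, and the E-box at 2 places each in the windows of Cldn4, Cldn6 and the downstream Cldn7 start. Of 42 windows of the 32 members with an entry, 9 held the TEAD element (21.4%), as did 14.7% of 32851 windows of all genes. Besides Cldn6 and Cldn7, it stood in windows of Cldn2, Cldn14, Cdh9, Cdh10 and Cdh20, all called lower in YAP-M against SVZ. Cldn15 and Cldn16, which were not tested, held it too. Cldn12, which also rose against SVZ, is not shown above and held neither the TEAD element nor the E-box in any window. The cadherins that rose, Cdh1, Cdh2, Cdh3, Cdh5 and Cdh17, had no entry. The E-box stood in 8 member windows (19.0%) and in 20.2% of all windows. A match describes the letters and is not a site of binding, and no binding data were used.

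The 10 epithelial markers, keratins and Epcam among them, summed to 798, 504, 1655 and 353 CPM in YAP-M, 205, 204 and 163 CPM in YMdIDR, 8.98, 17.2 and 11.5 CPM in SVZ and 0.855 and 1.14 CPM in NSC-YAP. In YAP-M and YMdIDR 8 of the 10 were at 1 CPM or more, in SVZ 5 and in NSC-YAP 0, and no marker was at 0 in a whole group. The 4 YAP-M libraries stood in the same order for this sum, for Cldn4 and for Cdh1, with replicate 3 highest and replicate 4 lowest, although replicates 2 and 4 were nearly equal in Cdh1. Cldn6 and Cldn7 stood otherwise, with their highest level in YMdIDR replicate 3, where the sum was the lowest of the 7 YAP-M and YMdIDR libraries. Within YMdIDR, Cldn4 and Cdh1 too were highest in replicate 3 (0.618 and 8.88 CPM), so their match with the sum in replicate order held in YAP-M alone. Between groups, the sum, Cldn4 and Cdh1 each had every YAP-M library above every YMdIDR library, and those above every SVZ library. The part of epithelial cells in these levels was not tested. In bulk RNA fewer cells of a type and less RNA per cell cannot be told apart, here and for every member.

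Cldn12 (ENSMUSG00000046798, chromosome 5, 5489537 to 5514958, minus strand, mm10) encodes a claudin that lacks the usual C-terminal anchor for junction scaffolds. It stood at 256, 267, 209 and 230.1 CPM in YAP-M, 182, 205 and 234 CPM in YMdIDR, 55.1, 56.5 and 55.7 CPM in SVZ and 39.04 and 37.8 CPM in NSC-YAP. All 7 libraries of YAP-M and YMdIDR stood above all 5 others, and SVZ above NSC-YAP. It rose by 2.11 ± 0.12 in YAP-M against SVZ (log2, SE, edgeR adjusted p = 5.85e-08), by 1.89 ± 0.12 in YMdIDR against SVZ and by 2.65 ± 0.14 in YAP-M against NSC-YAP. YAP-M and YMdIDR overlapped and differed by 0.22 ± 0.11, which was not called. Among the claudins tested it had the smallest standard error in these comparisons.

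Cldn5 (ENSMUSG00000041378, chromosome 16, 18776847 to 18778260, plus strand, mm10), the main claudin of brain endothelium, stood at 47.9, 54.5, 60.2 and 34.5 CPM in YAP-M, 30.1, 14.2 and 23.9 CPM in YMdIDR, 32.7, 27.8 and 37.9 CPM in SVZ and 0 and 0 CPM in NSC-YAP. NSC-YAP had no read, so YAP-M was at least 800.5-fold higher, against 3 counts over the group. YAP-M lay above YMdIDR in every library, a difference of 1.11 ± 0.26 (edgeR adjusted p = 0.00694), or 0.90 and not called without YMdIDR replicate 2. Against SVZ the difference of 0.59 ± 0.26 was not called, and the libraries of the 2 groups overlapped. The endothelial markers stood higher in YAP-M than in YMdIDR and SVZ in every library, as given above, and their part in the Cldn5 level was not tested.

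Cldn11 (ENSMUSG00000037625, chromosome 3, 31149920 to 31164324, plus strand, mm10) encodes the claudin of the myelin sheath, also called oligodendrocyte-specific protein. It stood at 36.9, 45.1, 82.9 and 164 CPM in YAP-M, 61.2, 14.6 and 31.1 CPM in YMdIDR, 994, 1012 and 1046 CPM in SVZ and 0.285 and 0.612 CPM in NSC-YAP. SVZ was far above all others, and within YAP-M replicate 4 and within YMdIDR replicate 1 were the highest. It fell by 3.63 ± 0.55 in YAP-M against SVZ (log2, SE, edgeR adjusted p = 9.34e-05). The 9 oligodendrocyte and myelin markers summed to 649, 626, 1344 and 2492 CPM in YAP-M, 1124, 404 and 583 CPM in YMdIDR and 143 CPM in both NSC-YAP libraries, where 3 of 9 reached 1 CPM. Their highest libraries were the same, and their part in the Cldn11 level was not tested. Between YAP-M and YMdIDR the difference of 1.21 ± 0.54 was not called, and it was called by DESeq2 (1.23) and without YMdIDR replicate 1 (1.85) or YAP-M replicate 1 (1.44).

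Cldn10, which encodes an ion pore claudin, stood at 1.80, 1.70, 3.15 and 3.75 CPM in YAP-M, 1.79, 0.315 and 1.19 CPM in YMdIDR, 30.7, 27.5 and 31.3 CPM in SVZ and 4.23 and 4.28 CPM in NSC-YAP. SVZ lay above all other libraries, and all 7 YAP-M and YMdIDR libraries lay below NSC-YAP. In YAP-M it fell by 3.52 ± 0.40 against SVZ (edgeR adjusted p = 1.03e-05). Its rise of 1.23 ± 0.44 against YMdIDR (adjusted p = 0.0422) came with overlapping libraries and was lost with the compared groups fitted alone and when any 1 of 9 libraries was left out, 0.83 without YMdIDR replicate 2 being the lowest value.

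Cldn2, a pore claudin of the choroid plexus and kidney, stood at 2.46, 1.41, 1.15 and 2.78 CPM in YAP-M, 4.53, 0.721 and 0.0883 CPM in YMdIDR, 6.12, 14.5 and 11.6 CPM in SVZ and 0.163 and 0.367 CPM in NSC-YAP. It fell by 2.46 ± 0.77 in YAP-M against SVZ (edgeR adjusted p = 0.0119). SVZ replicate 1 was the lowest of its group, and in YMdIDR replicate 1 was far above the other two. The 10 choroid plexus markers were likewise lowest in SVZ replicate 1 and highest in YMdIDR replicate 1 within those groups, with 999, 2483 and 2311 CPM in SVZ, 712, 84.00 and 53.6 CPM in YMdIDR and 318, 32.05, 60.3 and 256 CPM in YAP-M. In NSC-YAP they summed to 0.651 to 0.897 CPM, with Kl, Clic6 and Prlr at 0, and the part of choroid plexus tissue in the Cldn2 level was not tested. Without YMdIDR replicate 1 the difference of YAP-M from YMdIDR moved from 0.13 to 2.27 and was called higher. The rise against NSC-YAP (2.86 ± 1.17, adjusted p = 0.0449) was lost without either NSC-YAP library, SVZ replicate 2 or 3, or YAP-M replicate 1 or 4, and under quantile normalization (0.77).

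Cldn1, which makes the barrier of the skin, stood at 10.3, 10.9, 7.04 and 12.8 CPM in YAP-M, 10.98, 26.2 and 14.1 CPM in YMdIDR, 5.02, 13.2 and 11.04 CPM in SVZ and 0.163 and 0.245 CPM in NSC-YAP. Its levels in YAP-M, YMdIDR and SVZ overlapped, and both NSC-YAP libraries lay far below. It rose by 5.62 ± 0.64 in YAP-M against NSC-YAP (edgeR adjusted p = 1.34e-05) and was not called against SVZ or YMdIDR. Cldn14, a deafness gene of the inner ear, reached 3.73 to 4.35 CPM in SVZ and 0.037 to 0.853 CPM in YAP-M, a fall of 3.38 ± 0.59 (adjusted p = 0.000393; -4.11 without YAP-M replicate 4), with no read in NSC-YAP. Against YMdIDR it was called higher without YAP-M replicate 2 (1.92) and not with it.

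**Figure D3:**
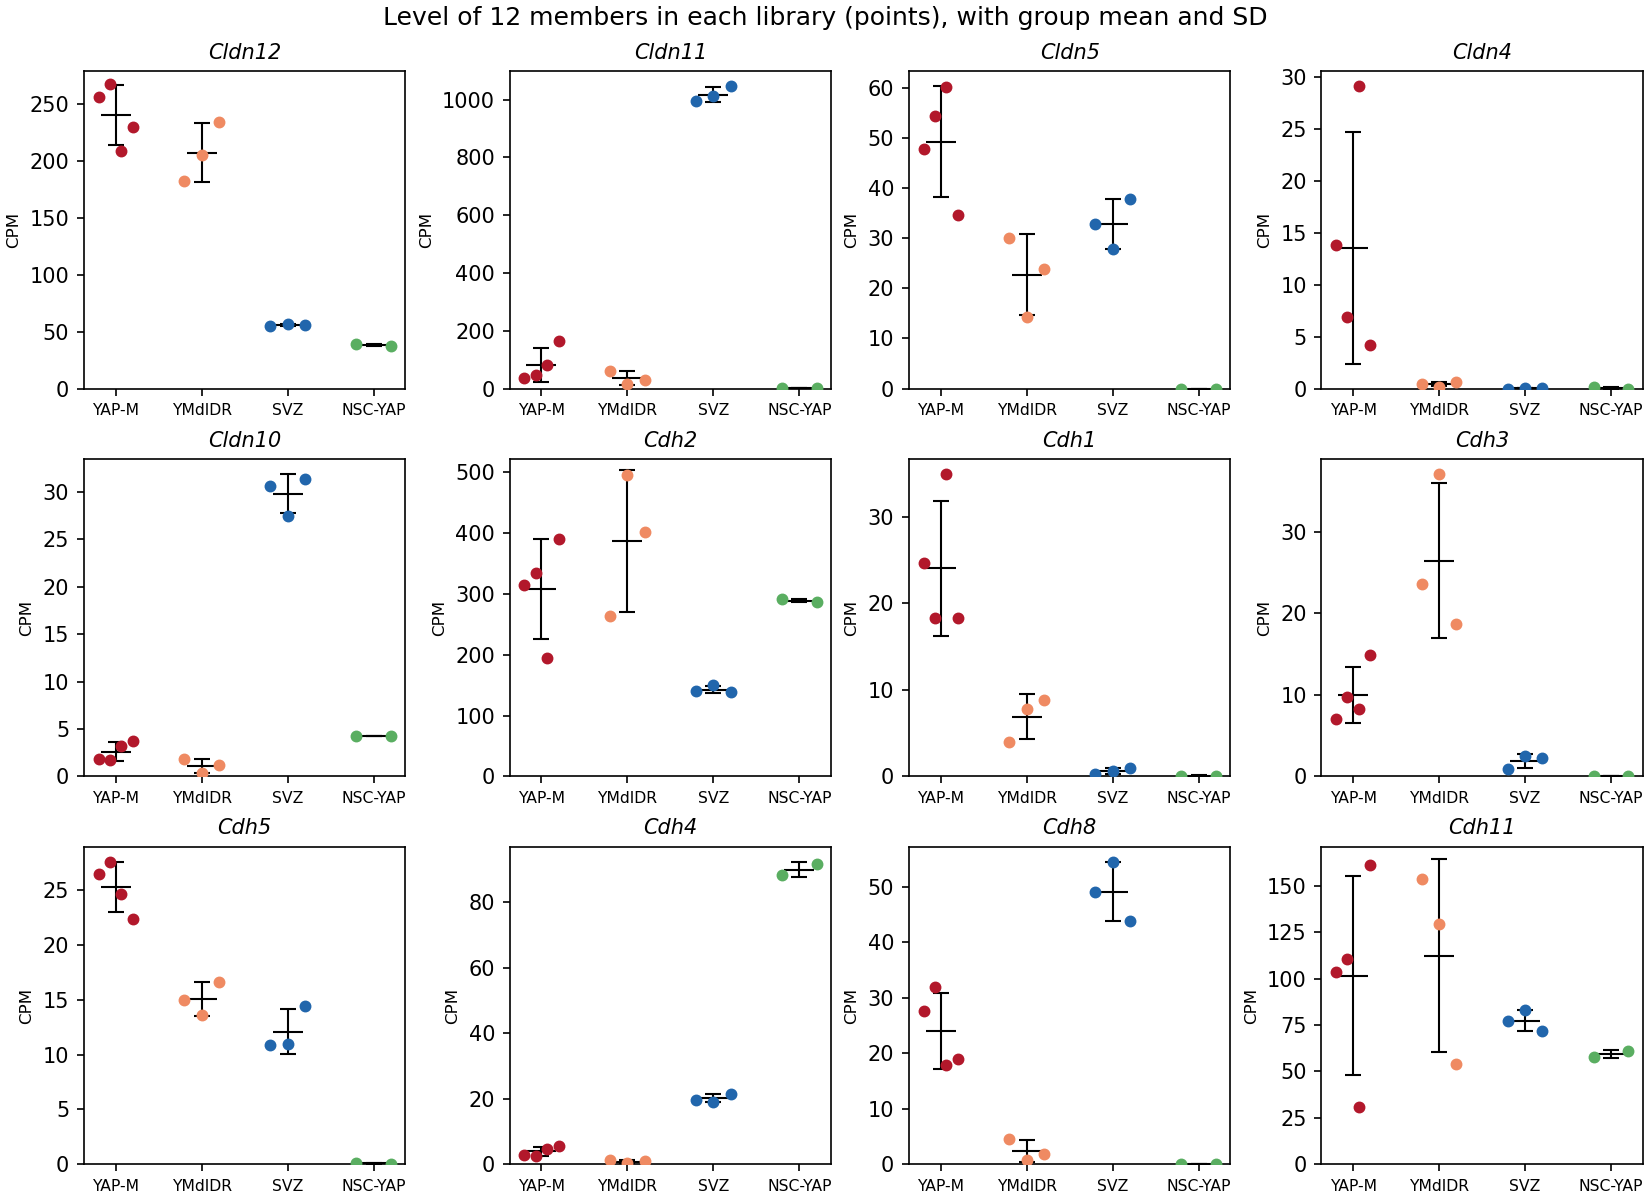
CPM of 12 members in each library (points, by group), with the group mean (dash) and standard deviation (bar); each panel has its own axis from 0. Cldn12 splits into 7 high and 5 low libraries, Cldn4 and Cdh1 are highest in YAP-M, Cdh3 in YMdIDR, Cldn11 and Cdh8 in SVZ, and Cdh4 in NSC-YAP.

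Of 5 type I cadherins, 3 rose, 1 fell and 1 was not called in YAP-M against SVZ, where 25.8% of all genes were called higher and 28.9% lower. Cdh1 (ENSMUSG00000000303, chromosome 8, 106603351 to 106670246, plus strand, mm10) encodes E-cadherin, the adherens junction cadherin of epithelia. It stood at 24.6, 18.3, 34.9 and 18.3 CPM in YAP-M, 3.93, 7.79 and 8.88 CPM in YMdIDR, 0.276, 0.629 and 0.928 CPM in SVZ and 0.0814 and 0 CPM in NSC-YAP. The 3 levels did not overlap, with YAP-M above YMdIDR and YMdIDR above SVZ. Cdh1 rose by 5.29 ± 0.49 in YAP-M against SVZ (log2, SE, edgeR adjusted p = 2.24e-06), by 3.48 ± 0.48 in YMdIDR against SVZ (adjusted p = 4.78e-05) and by 1.81 ± 0.38 in YAP-M against YMdIDR (adjusted p = 0.00354). NSC-YAP held 2 counts, against which YAP-M was 581 times (95% counting interval 161 to 4804).

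Cdh3 (ENSMUSG00000061048, chromosome 8, 106510891 to 106557297, plus strand, mm10) encodes P-cadherin, known from basal epithelium and placenta. It stood at 7.03, 9.78, 8.23 and 14.9 CPM in YAP-M, 23.6, 37.1 and 18.7 CPM in YMdIDR, 0.921, 2.52 and 2.25 CPM in SVZ and 0 and 0 CPM in NSC-YAP. The order differed from that of Cdh1, with every YMdIDR library above every YAP-M library. It fell by 1.41 ± 0.35 in YAP-M against YMdIDR (log2, SE, edgeR adjusted p = 0.00972) and rose by 2.40 ± 0.41 against SVZ (adjusted p = 0.000315). NSC-YAP had no read, and YAP-M was at least 164-fold higher, against a floor of 3 counts over the group.

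Cdh2 (ENSMUSG00000024304, chromosome 18, 16588877 to 16809246, minus strand, mm10) encodes N-cadherin, the cadherin of neuroepithelium and of many mesenchymal cells. It stood at 315, 335, 194 and 390.0 CPM in YAP-M, 264, 495 and 402 CPM in YMdIDR, 140.3, 150.1 and 138 CPM in SVZ and 291 and 287 CPM in NSC-YAP. SVZ was the lowest group, and the other 3 overlapped. It rose by 1.11 ± 0.24 in YAP-M (edgeR adjusted p = 0.00122), by 1.44 ± 0.25 in YMdIDR and by 1.02 ± 0.27 in NSC-YAP, each against the same SVZ libraries. The call in NSC-YAP was lost under quantile normalization (0.965). With a block for the replicate number, neither YAP-M (0.96) nor NSC-YAP (0.95) was called. Within YAP-M replicate 3 was the lowest for Cdh2 and the highest for Cdh1. Cdh1 and Cdh2 thus both stood above SVZ in every YAP-M library, while in NSC-YAP Cdh2 stood above SVZ and Cdh1 below it.

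Cdh4 (ENSMUSG00000000305, chromosome 2, 179442431 to 179899373, plus strand, mm10) encodes R-cadherin, a cadherin of retina and brain. It stood at 2.76, 2.52, 4.69 and 5.60 CPM in YAP-M, 1.37, 0.225 and 0.839 CPM in YMdIDR, 19.7, 19.1 and 21.5 CPM in SVZ and 88.4 and 91.7 CPM in NSC-YAP. The order ran from NSC-YAP down through SVZ and YAP-M to YMdIDR, and no groups overlapped. In YAP-M it fell by 2.37 ± 0.35 against SVZ (edgeR adjusted p = 7.75e-05) and fell by 4.53 ± 0.39 against NSC-YAP (adjusted p = 1.35e-06), and it rose by 2.25 ± 0.43 against YMdIDR (adjusted p = 0.00207; 2.85 without YMdIDR replicate 1). Cdh15, which encodes M-cadherin of muscle precursors, stood at 4.78, 9.19, 4.39 and 7.16 CPM in YAP-M, 11.97, 5.09 and 1.63 CPM in YMdIDR, 3.18, 2.43 and 1.61 CPM in SVZ and 0 and 0.163 CPM in NSC-YAP. It rose against NSC-YAP by 6.20 ± 1.08 (adjusted p = 0.000328), where the group held 4 counts, all in replicate 2. The value was 10.25 without NSC-YAP replicate 2 and 5.27 without replicate 1, and 3.81 under quantile normalization. Against SVZ it differed by 1.41 ± 0.60 with an adjusted p of 0.0507, just short of a call, and 7 of the other settings and 7 of 12 leave-outs called it. The 8 muscle markers summed to 14.5, 19.5, 13.1 and 22.3 CPM in YAP-M, 50.8, 28.9 and 9.10 CPM in YMdIDR, 7.60, 6.52 and 6.84 CPM in SVZ and 1.87 and 2.04 CPM in NSC-YAP, with Myod1 and Pax7 at 0 in YMdIDR. Their part in the Cdh15 level was not tested.

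Of 13 type II cadherins, 1 rose, 9 fell and 3 were not called in YAP-M against SVZ, where 25.8% of all genes were called higher and 28.9% lower. The call of 1 of the 9, Cdh8, was lost in many settings, as given with its values. The riser was Cdh5 (ENSMUSG00000031871, chromosome 8, 104101625 to 104144511, plus strand, mm10), the gene of VE-cadherin, which joins endothelial cells. It stood at 26.5, 27.6, 24.6 and 22.4 CPM in YAP-M, 14.96, 13.6 and 16.6 CPM in YMdIDR, 10.9, 10.9 and 14.5 CPM in SVZ and 0.0814 and 0.0408 CPM in NSC-YAP. YAP-M was highest in every library, and NSC-YAP held 3 counts in all. Cdh5 rose by 1.06 ± 0.15 in YAP-M against SVZ (edgeR adjusted p = 4.6e-05) and was 414 times (95% counting interval 141 to 2008) its NSC-YAP level. Against YMdIDR it differed by 0.75 ± 0.14 (adjusted p = 0.00207), under the fold change that a call needs. The endothelial markers summed to 644, 608, 529 and 448 CPM in YAP-M, 397, 409 and 399 CPM in YMdIDR and 228, 214 and 288 CPM in SVZ, with YAP-M above the other groups as for Cdh5, and their part in its level was not tested.

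Several of the other type II cadherins mark sets of neurons. The 10 neuronal markers summed to 275 to 627 CPM in YAP-M and 289 to 397 CPM in YMdIDR. In SVZ they summed to 4939 to 5274 CPM and in NSC-YAP to 732 to 801 CPM. Their part in the levels of these cadherins was not tested. Cdh8 (ENSMUSG00000036510, chromosome 8, 99024471 to 99416471, minus strand, mm10), known from cortical and striatal circuits, stood at 27.6, 32.01, 17.9 and 18.9 CPM in YAP-M, 4.62, 0.721 and 1.85 CPM in YMdIDR, 49.1, 54.5 and 43.8 CPM in SVZ and 0 and 0 CPM in NSC-YAP. The 4 groups did not overlap, and YMdIDR lay far under YAP-M. It rose by 3.32 ± 0.49 in YAP-M against YMdIDR (log2, SE, edgeR adjusted p = 0.000618), a value between 2.93 and 4.22 without single libraries, the highest without YMdIDR replicate 1. The fall of 1.03 ± 0.41 against SVZ (adjusted p = 0.0398) lay at the edge of a call. It was lost in 7 other settings (down to -0.89 with no filter) and without any of 8 libraries, NSC-YAP replicate 1, the 3 SVZ replicates, YAP-M replicates 1, 3 and 4 and YMdIDR replicate 2 (down to -0.80 without YAP-M replicate 3). NSC-YAP had no read, and YAP-M was at least 398-fold higher, against 3 counts over the group.

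Cdh8, Cdh7, Cdh9, Cdh12 and Cdh18 had no read in either NSC-YAP library. Cdh9, which works at synapses of the hippocampus, stood at 0.552, 0.556, 0.853 and 0.779 CPM in YAP-M, 0.342, 0.27 and 0.971 CPM in YMdIDR, 20.4, 19.1 and 16.5 CPM in SVZ and 0 and 0 CPM in NSC-YAP. It fell by 4.76 ± 0.36 in YAP-M against SVZ (edgeR adjusted p = 9.66e-07). Cdh7 stood at 0.809, 0.63, 0.895 and 2.15 CPM in YAP-M, 1.07, 0.0901 and 0.353 CPM in YMdIDR, 12.8, 15.9 and 14.8 CPM in SVZ and 0 and 0 CPM in NSC-YAP, and it fell by 3.69 ± 0.55 (adjusted p = 0.00013). Both genes were high in SVZ and low, with overlap, in YAP-M and YMdIDR. Between these they were not called, but without YMdIDR replicate 1 Cdh7 was called higher in YAP-M (2.31), and without YMdIDR replicate 3 so was Cdh9 (1.14).

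Cdh12 stood at 1.58, 0.704, 0.512 and 1.78 CPM in YAP-M, 0.214, 0.0901 and 0.486 CPM in YMdIDR, 8.80, 8.59 and 8.89 CPM in SVZ and 0 and 0 CPM in NSC-YAP. It fell by 2.92 ± 0.45 in YAP-M against SVZ (edgeR adjusted p = 0.000165) and rose by 2.10 ± 0.57 against YMdIDR (adjusted p = 0.014). Against YMdIDR no library overlapped, but no YAP-M library reached 2 CPM. That value was 2.87 without YMdIDR replicate 3, and with a block for the replicate number it was 1.785 and not called. Cdh18 stood at 1.51, 0.667, 2.98 and 2.71 CPM in YAP-M, 0.598, 1.22 and 0.927 CPM in YMdIDR, 9.35, 10.1 and 8.75 CPM in SVZ and 0 and 0 CPM in NSC-YAP, and it fell by 2.26 ± 0.42 against SVZ (adjusted p = 0.000623). YAP-M and YMdIDR overlapped in Cdh18, which was called between them without YAP-M replicate 2 (1.43) and by DESeq2 (1.15), and not otherwise when single libraries were left out.

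Another set was high in NSC-YAP. Cdh20 stood at 2.87, 4.26, 4.22 and 5.71 CPM in YAP-M, 1.71, 1.35 and 3.31 CPM in YMdIDR, 26.3, 25.6 and 25.6 CPM in SVZ and 61.5 and 64.9 CPM in NSC-YAP. Cdh10 stood at 3.13, 2.74, 3.03 and 4.82 CPM in YAP-M, 1.92, 2.93 and 2.65 CPM in YMdIDR, 40.2, 44.2 and 41.5 CPM in SVZ and 33.9 and 32.8 CPM in NSC-YAP. Cdh22 stood at 6.92, 6.37, 10.1 and 10.46 CPM in YAP-M, 14.7, 6.31 and 7.42 CPM in YMdIDR, 21.8, 19.1 and 24.97 CPM in SVZ and 64.1 and 62.2 CPM in NSC-YAP. In all 3 the YAP-M and YMdIDR libraries lay below every SVZ and NSC-YAP library. In YAP-M Cdh20 fell by 2.60 ± 0.26 against SVZ and fell by 3.89 ± 0.29 against NSC-YAP (edgeR adjusted p = 4.62e-06 and 4.67e-07). Cdh10 fell by 3.61 ± 0.20 and fell by 3.28 ± 0.21 (adjusted p = 5.85e-08 and 1.46e-07), and Cdh22 fell by 1.38 ± 0.27 and fell by 2.90 ± 0.30 (adjusted p = 0.000704 and 5.95e-06). Cdh10 differed from the other 2 in being slightly higher in SVZ than in NSC-YAP. The rise of Cdh20 against YMdIDR (1.004 ± 0.29, adjusted p = 0.0167) came with overlapping libraries and was lost without YAP-M replicate 4 (0.84) or YMdIDR replicate 1 (0.87) or 2 (0.80), under quantile normalization (0.88) and with the compared groups fitted alone.

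Cdh6, which encodes K-cadherin of kidney and neural crest, stood at 3.38, 1.81, 1.53 and 3.45 CPM in YAP-M, 1.32, 0.135 and 0.397 CPM in YMdIDR, 4.65, 5.75 and 5.47 CPM in SVZ and 12.3 and 13.7 CPM in NSC-YAP. It fell by 2.34 ± 0.50 in YAP-M against NSC-YAP (edgeR adjusted p = 0.00145) and rose by 2.02 ± 0.55 against YMdIDR (adjusted p = 0.0125). The latter was 3.23 without YMdIDR replicate 1, and it was not called when the compared groups were fitted alone (adjusted p = 0.0519). Against SVZ it differed by -1.05 ± 0.47 (adjusted p = 0.0581). It was called lower there under quantile normalization (-1.13), without YMdIDR replicate 1 (-1.05) or with a block for the replicate number (-1.345). Cdh24 stood at 4.49, 3.52, 4.65 and 5.08 CPM in YAP-M, 6.62, 9.50 and 19.6 CPM in YMdIDR, 7.05, 6.16 and 6.06 CPM in SVZ and 15.3 and 13.8 CPM in NSC-YAP. YMdIDR lay above YAP-M in every library, a fall of 1.42 ± 0.30 in YAP-M (adjusted p = 0.00344), but the call rested on YMdIDR replicate 3, without which the value was -0.86.

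Cdh19, a cadherin of the Schwann cell lineage, stood at 3.64, 3.33, 2.30 and 4.49 CPM in YAP-M, 1.41, 0.631 and 0.574 CPM in YMdIDR, 9.03, 14.7 and 13.98 CPM in SVZ and 3.91 and 5.38 CPM in NSC-YAP. It fell by 1.86 ± 0.31 in YAP-M against SVZ (edgeR adjusted p = 0.000213) and rose by 1.97 ± 0.36 against YMdIDR (adjusted p = 0.0016), with no overlap in either. The 7 Schwann cell and neural crest markers summed to 616 to 747 CPM in YAP-M, 662 to 832 CPM in YMdIDR and 192 to 207 CPM in SVZ. SVZ, the highest of these 3 groups in Cdh19, was thus the lowest in this sum.

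Cdh11 (ENSMUSG00000031673, chromosome 8, 102632095 to 102785642, minus strand, mm10), the cadherin of mesenchyme and bone, ranged over 30.9 to 161 CPM in YAP-M, 54.1 to 154 CPM in YMdIDR, 71.6 to 83.2 CPM in SVZ and 57.8 to 60.99 CPM in NSC-YAP. YAP-M ranged on both sides of the SVZ libraries, with replicate 3 the lowest of all 12. It was not called in any of the 3 comparisons of YAP-M, with 0.39 ± 0.45 against SVZ and 0.77 ± 0.53 against NSC-YAP, though without YAP-M replicate 3 the latter was called at 1.11. The 10 meningeal and fibroblast markers, collagens among them, summed to 4605, 4453, 2578 and 4376 CPM in YAP-M, where replicate 3 was again the lowest. They summed to 8404, 7153 and 10740.0 CPM in YMdIDR, 311 to 417 CPM in SVZ and 60.3 to 63.9 CPM in NSC-YAP, with Lum and Slc22a6 at 0 there. Cdh11 stood at 153.6, 129.4 and 54.1 CPM in YMdIDR, so replicate 3 was lowest in Cdh11 and highest in these markers. Their part in the Cdh11 level was not tested.

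Among the atypical cadherins Cdh13 (ENSMUSG00000031841, chromosome 8, 118283733 to 119324921, plus strand, mm10) encodes T-cadherin, held in the membrane by a lipid anchor. It stood at 28.8, 22.9, 27.3 and 26.97 CPM in YAP-M, 15.8, 6.80 and 10.6 CPM in YMdIDR, 108, 102 and 111 CPM in SVZ and 261 and 246 CPM in NSC-YAP. No groups overlapped, in the order NSC-YAP, SVZ, YAP-M and YMdIDR, the same order as for Cdh4. In YAP-M it fell by 2.01 ± 0.21 against SVZ and fell by 3.26 ± 0.23 against NSC-YAP, and rose by 1.25 ± 0.22 against YMdIDR (edgeR adjusted p = 4.86e-06, 2.89e-07 and 0.00114).

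Cdh17 (ENSMUSG00000028217, chromosome 4, 11758147 to 11817895, plus strand, mm10) encodes LI-cadherin, a cadherin of the intestine with a short cytoplasmic tail. It stood at 4.89, 5.11, 1.53 and 5.60 CPM in YAP-M, 8.98, 8.47 and 5.52 CPM in YMdIDR, 0.0461, 0.0899 and 0.0489 CPM in SVZ and 0.0814 and 0.0408 CPM in NSC-YAP. All 7 YAP-M and YMdIDR libraries lay above all others, where it was near 0, with YAP-M replicate 3 the lowest of the 7. It rose by 5.998 ± 0.61 in YAP-M against SVZ and by 6.83 ± 0.62 in YMdIDR (edgeR adjusted p = 4.52e-06 and 1.73e-06). YAP-M and YMdIDR differed by -0.83 ± 0.37, not called. Cdh23, the tip link cadherin of hair cells, ranged over 0.704 to 1.56 CPM in YAP-M against 2.29 to 3.13 CPM in SVZ, and Cdh26 over 0.11 to 0.371 against 1.15 to 1.89 CPM. Cdh23 fell by 1.32 ± 0.31 and Cdh26 fell by 2.87 ± 0.45 (adjusted p = 0.00224 and 0.000131).

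**Figure D4:**
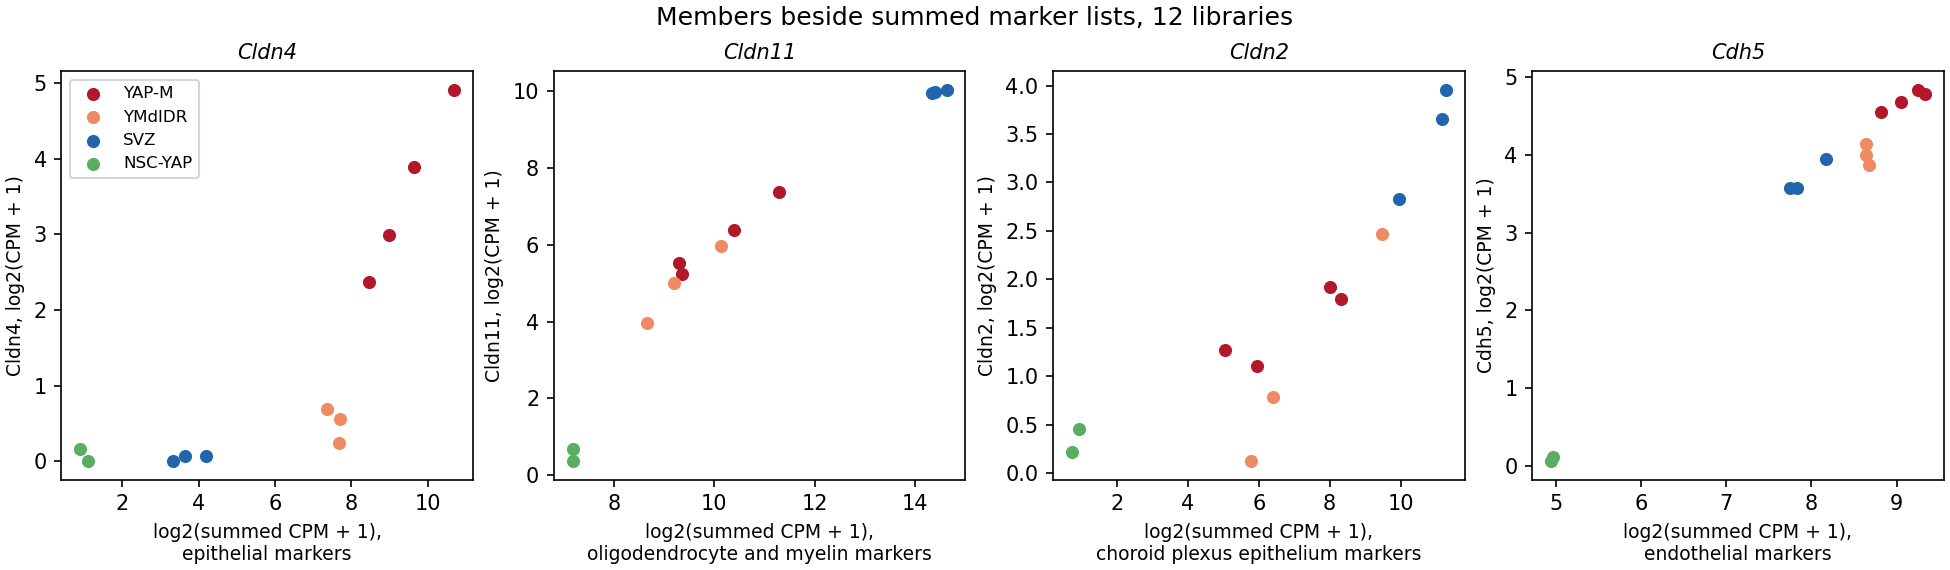
Log2(CPM + 1) of 4 members against log2(summed CPM + 1) of the marker list of a cell type, 1 point per library, coloured by group. Cldn4 and the epithelial sum order the 4 YAP-M libraries alike and the YMdIDR libraries differently. The 2 highest Cldn2 points are the SVZ libraries with the highest choroid plexus sums. The points share their libraries and no test was made.

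Of 14 adherens junction partners tested, 8 rose and 3 fell in YAP-M against SVZ, beside 25.8% and 28.9% of all genes (median 1.15, against -0.042 for all genes). Lima1, which links catenins to actin, ranged over 289.6 to 370.4 CPM against 26.1 to 34.6 CPM in SVZ, a rise of 3.38 ± 0.15 (edgeR adjusted p = 1.6e-08). Vcl, the gene of vinculin, rose by 3.95 ± 0.20, the nectin gene Nectin2 by 2.44 ± 0.12 and Ctnnal1 by 2.38 ± 0.14. Against YMdIDR 1 rose, Ctnnal1 (1.20 ± 0.14; 2 rose without YAP-M replicate 3 or YMdIDR replicate 1), and 1 fell (2 without YMdIDR replicate 3), Jup, the gene of plakoglobin, at 51.9 to 72.9 CPM against 160.0 to 187 CPM (-1.58 ± 0.12, adjusted p = 2.03e-05). Against NSC-YAP 5 rose, among them Nectin4 (4.15 ± 0.36), and 3 fell, among them the beta-catenin gene Ctnnb1 (-1.55 ± 0.14). Over all genes 9.61% were called higher and 6.78% lower against YMdIDR, and 28.9% and 21.6% against NSC-YAP.

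Of 25 tight junction partners tested, 9 rose and 7 fell in YAP-M against SVZ (median 0.47), and the share that fell was near the 28.9% of all genes, with 25.8% of all genes called higher. Prkci, a kinase of the polarity complex, rose by 2.29 ± 0.16, while the adhesion gene Jam3 (-1.65 ± 0.14), the polarity gene Pard6a (-1.82 ± 0.17) and the scaffold gene Magi2 (-1.65 ± 0.16) fell (edgeR adjusted p = 3.25e-07, 1.31e-06, 2.52e-06 and 3.17e-06). Against YMdIDR 5 rose. Cgn, the gene of cingulin, ranged over 9.65 to 86.9 CPM in YAP-M against 2.48 to 2.83 CPM (3.97 ± 0.62), and Pard6b over 33.1 to 125 against 18.2 to 26.8 CPM (1.83 ± 0.36). No tight junction partner was called lower by edgeR against YMdIDR, 2 had an unadjusted p under 0.05 in that direction, and DESeq2 and limma called 0. Against NSC-YAP 10 rose and 4 fell, with the junctional adhesion gene F11r at 36.8 to 53.05 CPM against 0.0815 to 0.122 CPM (8.76 ± 0.53, adjusted p = 1.03e-07). The shares of all genes were 9.61% higher and 6.78% lower against YMdIDR, and 28.9% and 21.6% against NSC-YAP.

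Desmosomes tie epithelial and heart muscle cells through cadherins of their own. Of 7 desmosome genes tested, 5 rose and 2 fell in YAP-M against SVZ (median 2.33), beside 25.8% and 28.9% of all genes. The desmocollin gene Dsc2 rose by 3.08 ± 0.32, the plakophilin gene Pkp2 by 2.33 ± 0.33, and Pkp4 fell (-1.51 ± 0.082; edgeR adjusted p = 4.97e-06, 5.17e-05 and 5.67e-08). Pkp3, which rose too, ranged over 1.08 to 3.97 CPM against 1 count in the SVZ libraries together. Against YMdIDR 3 rose, Dsg2 (7.57 to 58.4 against 1.31 to 4.81 CPM), Dsp (19.3 to 69.6 against 5.77 to 16.6 CPM) and Dsc2 (7.35 to 12.4 against 3.33 to 5.03 CPM). Against NSC-YAP 5 rose, among them Dsc2, Pkp2 and Dsp, the gene of desmoplakin, all under 1 CPM there. With no filter on low counts 5 rose against YMdIDR and 10 against NSC-YAP, and with a minimum of 5 CPM 1 fell against SVZ. No gene of this list was called lower in YAP-M by edgeR against YMdIDR or NSC-YAP. In that direction 0 had an unadjusted p under 0.05 or a call by DESeq2 or limma. The plakoglobin gene Jup, also a desmosome gene, was counted with the adherens junction partners alone. It was called lower against YMdIDR, as given there. In the reported fit 9.61% of all genes were called higher and 6.78% lower against YMdIDR, and 28.9% and 21.6% against NSC-YAP.

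The list of transcription factors of the epithelial to mesenchymal transition mixed mesenchymal factors (Snai, Zeb and Twist genes) with epithelial ones (Grhl and Ovol genes and Elf3). Its counts and median therefore give no direction of that transition. Of 9 tested, 4 rose and 3 fell in YAP-M against SVZ (median 1.64), beside 25.8% and 28.9% of all genes. Twist1, a mesenchymal factor, rose by 5.89 ± 0.36 and Snai1, a repressor of E-cadherin, by 4.12 ± 0.44, while Zeb1 (-1.33 ± 0.15) and Zeb2 (-1.03 ± 0.091), repressors of the same gene, fell (edgeR adjusted p = 1.28e-07, 6.31e-06, 1.16e-05 and 1.54e-06). Against YMdIDR the epithelial factors Grhl1 (1.42 ± 0.21) and Grhl2 (2.89 ± 0.86) rose. This count of 2 was 1 without YAP-M replicate 1 or 3 or YMdIDR replicate 3, with a minimum of 5 CPM and under quantile normalization. Grhl2 ranged over 0.185 to 2.64 CPM in YAP-M against 0.0883 to 0.18 CPM in YMdIDR. Against NSC-YAP 6 rose (3 with a minimum of 5 CPM or under quantile normalization) and 1 fell (2 under quantile normalization or by adjusted p alone), Zeb1, at 39.9 to 46.8 CPM against 227 to 241 CPM (-2.46 ± 0.17, adjusted p = 2.56e-07). Calls over all genes were 9.61% higher and 6.78% lower against YMdIDR, and 28.9% and 21.6% against NSC-YAP.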

How the data were processed

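The authors deposited raw whole-number counts per gene for each of 12 RNA-seq libraries, with Ensembl identifiers, symbols and positions. Per the labels' protocols, RNA was isolated with TRIzol and RNeasy and prepared with an Illumina TruSeq RNA kit. Per the submitters' processing notes, TopHat2 and mm10 were used. Which program counted the reads, with which strand setting and annotation, is not given in the sources used here, so reads of overlapping genes or close paralogs may be split or shared. Lines with the same symbol were summed (453 lines, giving 52850 symbols).

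Groups came from sample titles. A gene needed 1 CPM or more in 2 or more libraries (18329 did) and was tested in edgeR 4.0.16 (R 4.3.3) by quasi-likelihood, TMM scaled (factors 0.826 to 1.13), all 12 libraries in 1 fit with 4 group means, and Benjamini-Hochberg adjustment over all genes within each of 6 comparisons. The groups thus share 1 estimate of the spread. Values after ± are standard errors for log2 fold changes. Where a group had no read, folds were bounded with a floor of 3 counts over the group, and with 1 to 3 counts a ratio is given with an exact 95% interval, both of which cover counting error only. In simulated data for YAP-M against SVZ (17380 genes), 38 of 100 genes changed 2-fold and 92 of 100 changed 4-fold were recovered, and for YAP-M against YMdIDR (17389 genes) 32 and 87. Recovery required an estimate of at least 2-fold, so many genes set at exactly 2-fold failed by that limit (median log2 estimates 1.03 and 0.951).

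Members with a group mean of at least 5 CPM that were called in a comparison of YAP-M are described by library; of each partner list up to 4 genes with the smallest adjusted p are named in a comparison. The members, lists and rules were chosen with earlier results of these data known. The design foresaw limma if values were normalized; they were counts. A marker gene of the cell type lists is not reported here and was left out of the sums. Promoter windows came from RefSeq (GRCm38.p6). Of the members 14 had no entry. Replicates of a group differed by more than sampling noise (chi-square per gene averaging 3.90 to 76.1 over pairs), so each library was entered as 1 sample. Alternatives were DESeq2 1.42.0, quantile normalization with limma 3.58.1, median-ratio scaling, a stricter filter of 5 CPM or none, a fit of just the groups compared, a call by adjusted p without a fold limit, a block for the replicate number, and leaving out each library. Figures were drawn with matplotlib 3.10.9.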

Additional observations from a re-analysis of the deposited data

How the results depend on the processing

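When 1 library was left out, 989 counts of called genes stayed within 1.5 times the reported count and 19 did not; under the other alternatives it was 637 and 35. The count of members lower in YAP-M than in YMdIDR was 2 and ranged from 1 to 4 over the leave-outs, with 4 without YMdIDR replicate 1 and 1 without YMdIDR replicate 3. The count of members lower in YAP-M than in NSC-YAP went from 7 to 11 under quantile normalization with limma, which moved the median log2 difference of all genes in that comparison from 0.0998 to -0.18. In NSC-YAP against SVZ it moved that median from -0.099 to 0.25, and the calls over all genes from 3199 higher and 5061 lower to 4591 and 3643. There Cdh23 turned to 0.18 under the same setting. The cause of these moves was not tested.

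Of the values of single members, 1835 kept their direction and their side of the threshold over the leave-outs, 49 lost a call, 14 gained one and 10 changed sign. Values that changed sign over the leave-outs, none of them called in the reported fit, ran from -0.48 to 0.17 for Cdh11, from -0.42 to 0.92 for Cdh15, from -0.36 to 0.30 for Cdh22 and from -0.43 to 2.27 for Cldn2 in YAP-M against YMdIDR, and from -0.19 to 0.41 for Cldn1 in YAP-M against SVZ.

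Whether the shared replicate numbers pair the samples cannot be settled from groups of 2 to 4 libraries. The highest correlation given next was that of replicate 2 of YAP-M with replicate 2 of YMdIDR. Over 15 pairs of libraries with the same number in different groups, the correlation of deviations from the group means ran from -0.097 to 0.386, 4 were over 0.1, and 7 of 18 checks found a library closest to its own number. With the replicate number as a block, YAP-M had 9 members higher and 17 lower against SVZ, 8 and 3 against YMdIDR, and 19 and 7 against NSC-YAP. With it Cdh2 was no longer called against SVZ in YAP-M (0.96) or in NSC-YAP (0.95), nor Cdh12 in YAP-M against YMdIDR (1.79), while Cdh6 was called lower in YAP-M against SVZ (-1.34). Cdh11 turned to -0.15 in YAP-M against SVZ with that replicate block.

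Groups of 2 to 4 libraries limit these results. In simulated data genes set at 2-fold, the limit of a call, were often missed, in part because their estimates fell under that limit. Levels near 3 counts (0.110 to 0.147 CPM in a library) have wide counting error. The labels leave the material of YMdIDR and SVZ unsettled. Without a stated strand setting, reads of overlapping or antisense genes cannot be told apart.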

Other observations

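In NSC-YAP against SVZ, 6 of 22 tested cadherins rose and 12 fell, where 17.5% of all genes were called higher and 27.6% lower. Those that fell were Cdh1, Cdh3, Cdh5, Cdh7, Cdh8, Cdh9, Cdh12, Cdh15, Cdh18, Cdh19, Cdh23 and Cdh26. Beside Cdh2, Cdh4 rose by 2.16 ± 0.39, Cdh22 by 1.52 ± 0.32, Cdh20 by 1.29 ± 0.30, Cdh13 by 1.25 ± 0.24 and Cdh24 by 1.18 ± 0.35 (log2, SE), with edgeR adjusted p values of 0.000543, 0.00136, 0.00255, 0.000787 and 0.0122. No claudin was called higher there by edgeR, DESeq2 or limma, and 0 had an unadjusted p under 0.05 in that direction. The call of Cdh24 was lost without NSC-YAP replicate 1 (1.13). That of Cdh23 (-1.01) was lost with no filter, with the replicate block, under quantile normalization and in most leave-outs. Cdh1 was not called without NSC-YAP replicate 2 (-2.81) or under quantile normalization (-0.46). Cdh19 was not called without NSC-YAP replicate 1 (-1.19) or under quantile normalization (-0.89). Cldn11 fell by 11.13 ± 1.10 (adjusted p = 5.55e-06). Endothelial Cldn5 was at least 535-fold and Cdh8 at least 807-fold lower in NSC-YAP than in SVZ, against a floor of 3 counts over the group.

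A further 12 symbols begin like a claudin and carry a suffix, so the rule left them out. The highest was Cldn34c1, with mean levels of 3.08 CPM in YAP-M, 4.52 CPM in YMdIDR and 5.77 CPM in SVZ, and no read in NSC-YAP. Cldn34c2 stood at 0.778, 1.13 and 1.08 CPM in the same groups. These genes lie in a family of close copies, and the counts may be split between them.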
